A study of Mus musculus with 6 samples.

Results

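The 10 genes described here are Cd14 and 9 Toll-like receptors, taken by symbol from the 22377 genes of the count table. All 10 passed edgeR's filter on low counts, as did 13884 genes in all. RNA was sequenced in 6 libraries of mice bearing subcutaneous LLC tumors (Lewis lung carcinoma, a mouse lung cancer cell line). Of these, 3 are labelled wt, and the other 3 are labelled ko in their titles and knockdown as their treatment, with no genotype stated. The groups of the study are Npm1+/+ and Npm1+/- mice, young animals of both sexes, and the tumor cells are those of the implanted line. How the Npm1 allele was made is not described in the sources used here. The study's methods describe macrophages sorted as CD45+ CD11b+ F4/80+, with a cDNA kit for low input, whereas the labels name tumor tissue, TRIzol and a protocol that enriches small RNAs. The difference was not resolved here, and it bears on what the counts of mRNA represent.

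Toll-like receptors are membrane proteins with which macrophages sense conserved molecules of microbes and of dying cells. Tlr1, Tlr2, Tlr4 and Tlr6 act mainly at the cell surface, where they bind bacterial lipoproteins and lipopolysaccharide. Tlr3, Tlr7, Tlr8, Tlr9 and Tlr13 act in endosomes, where they bind nucleic acids. Cd14, a surface protein anchored through a lipid, hands lipopolysaccharide to the complex of Tlr4 with Ly96 and helps other receptors take up their ligands. The receptors signal through adaptors such as Myd88 and Ticam1 to NF-kB and interferon regulatory factors.

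Npm1, the targeted gene, had a level of 142, 380.2 and 381 CPM (read counts scaled to library size with TMM factors) in wt replicates 1, 2 and 3 and of 441, 499 and 343 CPM in ko replicates 1, 2 and 3. The ko label therefore did not go with a lower Npm1 level (log2 fold change 0.51, standard error 0.36, adjusted p = 0.436 with edgeR), and the groups are called by their labels below. Npm1 thus gives no check that the labels match the genotypes, and every direction below is that of the labels. The total count ranged from 36550775 to 38147320 per library. wt replicate 1 stood apart, at -108 on the first principal component against -4.54 to 52.0 for the other libraries. The sorting markers Ptprc, Itgam and Adgre1 were present in each library, at no less than 928, 1492 and 127 CPM. The labels call the replicates separate biosamples without naming animals, so that p-values measure the spread between these libraries. The study shows part of these data with fewer mice in a group than there are libraries, and n below counts libraries.

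All 10 genes had a lower estimate in the libraries labelled ko, against 47.9% of all genes tested. The median log2 fold change of the 10 was -0.38, and that of all genes tested was 0.02. The single estimates ran from -0.96 for Tlr9 to -0.32 for Tlr1. None of the 10 passed an adjusted p of 0.05 in edgeR's quasi-likelihood test, and 0% of all genes tested did. At an unadjusted p under 0.05, Tlr9 and Tlr2 were lower, 2 of the 10, where 8.31% of all genes were lower and 6.9% higher by this rule. For Tlr2, Tlr6 and Tlr9, every ko library lay below every wt library, 3 of the 10 against 12.6% of all genes tested, and no member lay wholly above, against 13.3%. The groups of Tlr6 overlapped under upper quartile scaling, on the FPKM scale and with a filter of at least 10 counts, which left Tlr2 and Tlr9. In bulk RNA, fewer cells that carry a transcript and less of the transcript in each cell cannot be told apart.

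**Figure D1:**
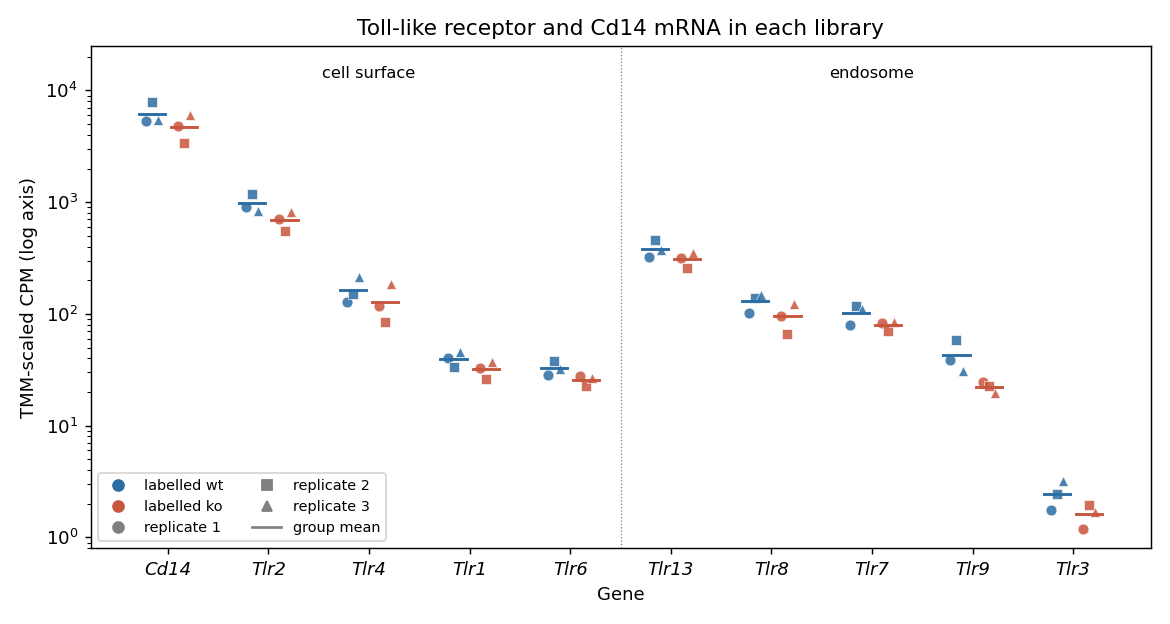
TMM-scaled CPM on a log axis for each of the 10 genes, with 1 point per library, colors for the label, shapes for the replicate number and a bar at the group mean. The groups do not overlap for Tlr2, Tlr6 and Tlr9, and the ko mean lies below the wt mean for each gene.

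Tlr9, Tlr8 and Tlr1 are shown here with stretches of their promoters. Tlr9 was taken because its difference was the largest of the 10. Tlr8 and Tlr1 were taken because these hold letters of a motif of the STAT family, and Tlr1 also those of PU.1, the lineage factor of macrophages. Of the STAT family, the study examined STAT3, at the promoter of Ccrl2. The sequences come from the 250 bases before RefSeq transcription starts on GRCm38.p6, which were found for 7 of the 10 genes. The capitals mark the matched letters, and each line is read 5′ to 3′ on the strand of the gene. The stretches of Tlr1 come from different RefSeq starts, not from 1 promoter. The one with STAT letters lies within the gene as annotated, from 64924679 to 64933563.
Tlr9, AP-1 letters, chr9:106222520-106222566, plus strand: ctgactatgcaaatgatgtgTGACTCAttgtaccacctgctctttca
Tlr8, STAT letters, chrX:167264407-167264455, minus strand: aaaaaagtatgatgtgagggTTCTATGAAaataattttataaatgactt
Tlr1, STAT letters, chr5:64932899-64932947, minus strand: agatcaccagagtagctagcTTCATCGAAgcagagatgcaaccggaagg
Tlr1, PU.1 letters, chr5:64933559-64933601, minus strand: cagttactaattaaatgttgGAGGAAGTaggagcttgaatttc
The letters searched on both strands were TTCNNNGAA for STAT, GAGGAAGT for PU.1, GGANTTTCC for NF-kB, TTGCNNCAA for C/EBP and TGANTCA for AP-1. These 5 were kept after matches of further patterns had been looked at. They occur in 7.02%, 2.44%, 1.07%, 1.74% and 6.75% of 32851 promoters of this length. These shares count promoters, while a gene such as Tlr1 has different starts, so members are not counted on the same basis. The NF-kB letters were found for Tlr3 and the C/EBP letters for Tlr6, and none of the 5 for Tlr2 or Tlr13. A match is only a description of the letters and shows no binding.

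Among the surface receptors, Tlr2, which pairs with Tlr1 or Tlr6 to bind bacterial lipoproteins, had the lowest p. Tlr2 (NCBI Gene 24088) is annotated at 83836272 to 83841767 of chromosome 3 (minus strand, GRCm38). Its level was 898, 1191 and 839 CPM in wt replicates 1, 2 and 3 and 707, 555 and 810 in the ko replicates. The highest ko library, replicate 3, stood just below the lowest wt library, replicate 3. The mean was 976 ± 188 CPM (SD, n = 3) in wt and 691 ± 129 (SD, n = 3) in ko, which is 29.2% lower. The estimate on the log2 scale was -0.50 with a standard error of 0.20, and the adjusted p from edgeR was 0.328.

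Tlr1 and Tlr6, the partners of Tlr2, are neighbors on chromosome 5 of GRCm38, 18468 bp apart on the minus strand. Tlr1 (NCBI Gene 21897) lies from 64924679 to 64933563 and Tlr6 (NCBI Gene 21899) from 64952031 to 64960097. Of the distinct stretches of 50 bases in Tlr1 transcripts, 13.6% also occur in Tlr6, and 12.3% of those of Tlr6 in Tlr1, so that reads could have been divided between them and both levels are uncertain for this reason. Tlr6 had 28.6, 37.8 and 32.1 CPM in the wt replicates and 28.0, 22.7 and 26.6 in the ko replicates. The groups thus met at wt replicate 1 and ko replicate 1 without overlapping. edgeR gave Tlr6 a log2 difference of -0.35 with a standard error of 0.16 and an adjusted p of 0.331. Tlr1 had 40.2, 33.6 and 45.6 CPM in wt and 32.9, 26.1 and 36.8 in ko, and here ko replicate 3 exceeded wt replicate 2. For Tlr1 the log2 difference was -0.32, its standard error 0.18 and the adjusted p from edgeR 0.364.

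Tlr4, the receptor for lipopolysaccharide, had the largest p of the 10 genes. Tlr4 (NCBI Gene 21898) is annotated at 66827584 to 66930284 of chromosome 4 (plus strand, GRCm38). Its level was 129, 152 and 215 CPM in wt and 117, 84.3 and 186 in ko. Both the highest wt and the highest ko library were replicate 3, and ko replicate 3 exceeded 2 of the wt libraries. The log2 difference of -0.36 had a 95% interval from -1.07 to 0.36 (edgeR, adjusted p = 0.505). That difference rested on single libraries, being -0.14 without wt replicate 3, -0.13 without ko replicate 2 and -0.72 without ko replicate 3.

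Cd14, the co-receptor, was the most abundant of the 10 transcripts. Cd14 (NCBI Gene 12475) is annotated at 36725067 to 36726798 of chromosome 18 (minus strand, GRCm38). It stood at 5318, 7870 and 5393 CPM in wt and at 4845, 3395 and 6016 in ko. ko replicate 3 was above 2 of the 3 wt libraries. The mean was 6194 ± 1452 CPM (SD, n = 3) in wt and 4752 ± 1313 (SD, n = 3) in ko, a log2 difference of -0.38 with a standard error of 0.26 (edgeR, adjusted p = 0.427). It was -0.18 without wt replicate 2, -0.20 without ko replicate 2 and -0.59 without ko replicate 3. The levels of Cd14 per Tlr4 on the FPKM scale (per gene length and library total) were 209, 263 and 127 in wt and 210.1, 204 and 164 in ko, so that their ratio overlapped between the groups.

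Tlr9, which binds DNA rich in unmethylated CpG, had the estimate farthest from 0 among the 10 genes. Tlr9 (NCBI Gene 81897) is annotated at 106222598 to 106226883 of chromosome 9 (plus strand, GRCm38). Its level was 39.0, 59.0 and 31.1 CPM in wt replicates 1, 2 and 3 and 24.3, 22.7 and 19.5 in the ko replicates. The ko libraries lay close together and each was below the lowest wt library. The mean was 43.0 ± 14.4 CPM (SD, n = 3) in wt and 22.2 ± 2.46 (SD, n = 3) in ko, which is 48.5% lower. On the log2 scale Tlr9 differed by -0.96, with a standard error of 0.24 and a 95% interval from -1.52 to -0.39. Tlr9 ranked 107 by p among the 13884 genes, with an unadjusted p of 0.00469 from edgeR and an adjusted p of 0.328. The exact permutation test over libraries gave a two-sided p of 0.1, the smallest that 3 against 3 allow, for Tlr9, Tlr2 and Tlr6 alike.

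Tlr7, a receptor for RNA rich in uridine and its breakdown products, and Tlr8 are neighbors on the X chromosome, 40600 bp apart. Tlr7 (NCBI Gene 170743) lies from 167304929 to 167330558 and Tlr8 (NCBI Gene 170744) from 167242696 to 167264329, both on the minus strand. Tlr7 had 80.3, 118 and 109.8 CPM in wt and 82.3, 69.6 and 85.3 in ko. The overlap came from wt replicate 1, which lay below 2 of the ko libraries. Tlr8 had 102 CPM in that library, 138 and 148 in the other wt libraries, and 95.6, 66.2 and 124 in ko, where replicate 3 exceeded wt replicate 1. Their log2 fold changes were -0.38 (standard error 0.17) and -0.44 (standard error 0.24), with adjusted p of 0.331 and 0.36 (edgeR).

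Tlr13, which recognizes bacterial ribosomal RNA, was the most abundant endosomal receptor. Tlr13 (NCBI Gene 279572) is annotated at 106143204 to 106160493 of chromosome X (plus strand, GRCm38). It had 323, 455 and 376 CPM in wt and 318, 256 and 349 in ko. wt replicate 1 again lay below ko replicate 3, and edgeR gave a log2 difference of -0.32 with a standard error of 0.18 and an adjusted p of 0.36.

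Tlr3, the receptor for dsRNA, was scarce. Tlr3 (NCBI Gene 142980) is annotated at 45395665 to 45411080 of chromosome 8 (minus strand, GRCm38). It is the only member that another annotated gene overlaps, Gm45542 on the plus strand. The sources used here do not say whether counting used strand, so reads from the overlap cannot be told apart. Of the distinct stretches of 50 bases in Tlr3 transcripts, 5.30% also occur in Gm45542 on either strand. Tlr3 had 62, 87 and 120 counts in wt and 47, 81 and 62 in ko, or 1.74, 2.45 and 3.21 CPM and 1.20, 1.93 and 1.70 CPM. ko replicate 2 exceeded wt replicate 1, and the log2 fold change of -0.62 had a standard error of 0.36 (adjusted p = 0.373, edgeR).

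The remaining Toll-like receptors of the mouse were examined beside these. Tlr5, the receptor for flagellin, had a mean of 33.4 ± 9.07 CPM (SD, n = 3) in wt and 22.6 ± 8.66 (SD, n = 3) in ko. Tlr11 and Tlr12, which sense profilin of protozoa, stood at no more than 0.93 CPM in any library. Each of the 3 had a lower estimate in ko, from -1.79 for Tlr11 to -0.56 for Tlr5 on the log2 scale, with overlapping groups and adjusted p of 0.329 to 0.444 (edgeR).

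Levels can be compared between genes only per length, on the FPKM scale. The mean FPKM over the 6 libraries was 3252 for Cd14, 249 for Tlr2, 85.6 for Tlr13 and 20.6 for Tlr8, in this order in each library. The ranges of Cd14, Tlr2, Tlr13 and Tlr8 over the 6 libraries did not overlap. From Tlr8 down, through Tlr4 at 17.3, Tlr7 at 16.3, Tlr1 at 11.0, Tlr9 at 9.24 and Tlr6 at 6.45 FPKM, each gene's range overlapped that of the next. Tlr4 exceeded Tlr7 in 3 of the 6 libraries. Tlr3 was lowest in each, with a mean of 0.401 FPKM and a range below that of Tlr6.
Of the summed FPKM of the 9 receptors, Tlr2 made up 56.3% to 63.0% and Tlr13 18.7% to 22.3%. The sum was 403, 537 and 444 FPKM in wt and 382, 329 and 403 in ko, without TMM scaling. Tlr9 made up 2.60%, 2.95% and 1.98% of it in wt and 1.93%, 2.28% and 1.35% in ko, so that its share overlapped between the groups although its CPM did not.

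The low and the high ends were held by few libraries. ko replicate 2 had the lowest level of 8 of the 10 genes, with Tlr3 lowest in ko replicate 1 and Tlr9 in ko replicate 3. wt replicate 2 was highest for 6 of them and wt replicate 3 for the other 4. ko replicates 1 and 2 each lay below all wt libraries for 9 of the 10 genes, and ko replicate 3 for 4.
Across the 6 libraries, log2 CPM correlated positively in all 45 pairs of members, with a median Pearson r of 0.687. The nearest pairs were Tlr13 with Cd14 at 0.958, Tlr2 with Cd14 at 0.956 and Tlr6 with Tlr13 at 0.954, and the farthest pair was Tlr4 with Tlr9 at 0.153. The 6 points share the groups and the scaling of each library. Tlr4 was also near Tlr8 at 0.943, Tlr7 near Tlr13 at 0.945, Tlr1 near Tlr4 at 0.847, Tlr9 near Tlr6 at 0.828 and Tlr3 near Tlr7 at 0.670. Over all genes tested, the gene nearest to Cd14 was Ndrg1 (0.996), to Tlr2 LOC118567870 (0.997), to Tlr4 Phactr2 (0.995), to Tlr1 Inpp5f (0.993) and to Tlr6 Gm38733 (0.993). For the endosomal receptors it was Tefm for Tlr9 (0.992), Dync1i2 for Tlr8 (0.998), Gipr for Tlr7 (0.990), Itpkc for Tlr13 (0.987) and D330050I16Rik for Tlr3 (0.981). Between 4 and 81 genes other than members had an r over 0.95 with a given member, so that such likeness was not rare.

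The markers of macrophages, the cells the study sorted, were plentiful. Beside the counts of markers here, 47.9% of all genes tested had a lower estimate. All 9 markers on the list (among them Ptprc, Itgam, Adgre1, Csf1r, Cd68 and Lyz2) had a lower estimate, with a median log2 fold change of -0.54, further from 0 than the -0.38 of the members. Their summed level was 16004 to 21563 CPM in wt and 9601 to 15921 in ko. Neutrophils carry Tlr2, Tlr4 and Cd14 too, and all 8 of their markers had a lower estimate, with a median of -0.80 and sums of 1694 to 1895 CPM in wt and 731 to 1478 in ko. Of the neutrophil markers, Ly6g, Mpo and Elane were at no more than 2.11, 0.86 and 0.53 CPM in any library. S100a9, S100a8, Csf3r, Retnlg and Cxcr2 were at no less than 356, 161, 160, 39.5 and 14.2 CPM.
In each wt library the median of the members and that of the macrophage markers stood on different sides of the wt mean. Single members lay on both sides of that mean in each wt library. On the log2 scale, the median of the members was -0.22, 0.21 and 0.05 from that mean in wt replicates 1, 2 and 3, and the median of the macrophage markers was 0.17, -0.10 and -0.15. In ko replicates 1, 2 and 3 the median of the members was -0.37, -0.70 and -0.19. That of the macrophage markers was -0.57, -0.90 and -0.20 there.
Scaling each library to the 9 macrophage markers, a choice made after the data were examined, left 4 of the 10 members with a lower estimate. By this scaling 9.67% of all genes tested were lower. The groups were without overlap in 0 of the 10, where 0.951% of all genes tested lay wholly lower in ko. The log2 fold change of Tlr9 was then -0.43, that of Tlr2 -0.03, that of Tlr4 0.049 and that of Cd14 0.058, while the median over all genes tested stood at 0.53. The part of these markers in the differences was not tested.

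**Figure D2:**
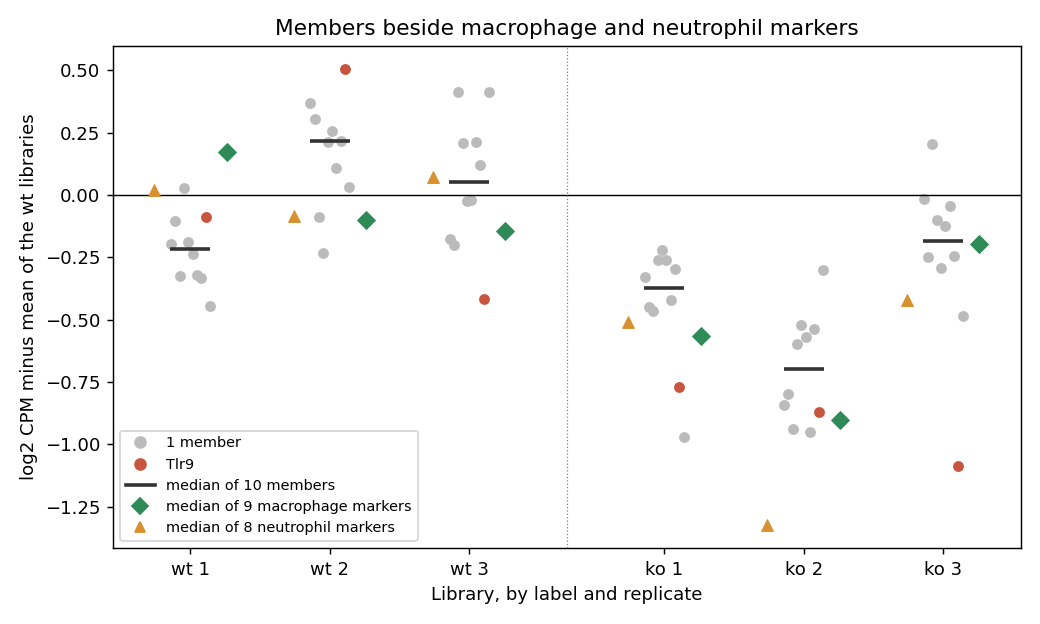
Log2 CPM of each library minus the mean of the wt libraries, with 1 point per member, a bar at the median of the 10 members, and the medians of the macrophage and neutrophil markers. The median of the members is -0.70 in ko replicate 2, the lowest library. In each wt library it and the median of the macrophage markers lie on different sides of 0, while single members lie on both.

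Markers of several other cell types were also measured. Of the T cell markers, 5 of 5 tested had a higher estimate, with sums of 12.9 to 65.3 CPM in wt and 53.1 to 142 in ko, and no estimate passed the adjusted threshold. All 6 NK cell markers, with sums of 25.8 to 49.0 CPM in wt and 40.7 to 122 in ko, and all 7 fibroblast markers, with sums of 23.7 to 477 CPM in wt and 345 to 688 in ko, also had higher estimates. Markers of epithelial or carcinoma cells summed to 35.2 to 137 CPM in wt and 129 to 191 in ko. Of the 3 of these tested, 2 had a higher and 1 a lower estimate. The sums were at most 58.0 CPM for B cells, 39.8 for endothelial cells and 1.90 for mast cells. Plasmacytoid dendritic cells are rich in Tlr7 and Tlr9. Their markers summed to 34.6 to 49.1 CPM in wt and 47.0 to 47.2 in ko. Most of this was Tcf4, at 33.4 to 48.1 CPM in wt and 45.7 to 46.5 in ko. The defining marker Siglech and Ccr9 were at no more than 0.72 CPM in any library, Klk1 at no more than 0.11 and Cox6a2 at no more than 0.20. Conventional dendritic cell markers summed to 214 to 366 CPM in wt and 238 to 339 in ko, with 4 of 6 lower.

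The choice of libraries also moved these results. Without wt replicate 1 alone 7 of the 10 genes lay wholly lower in ko, where 14.9% of all genes tested did so. Without ko replicate 3 alone 8 of the 10 did, against 22.8% of all genes, and the median log2 fold change of the members was -0.61. Without ko replicate 2, the library with the lowest level of 8 members, that median was -0.26. With 1 library left out, Tlr9 ran from -1.16 without wt replicate 3 to -0.67 without wt replicate 2. Tlr2 ran from -0.63 without ko replicate 3 to -0.33 without wt replicate 2. Among the other members, Tlr8 went to -0.25 without ko replicate 2 and -0.68 without ko replicate 3, Tlr13 to -0.19 without wt replicate 2 and -0.21 without ko replicate 2, Tlr1 to -0.20 without ko replicate 2 and Tlr3 to -0.40 without wt replicate 3. Without both wt replicate 1 and ko replicate 3, every ko library lay below every wt library for all 10 genes, against 26.1% of all genes tested, and the median log2 fold change was -0.69. These 2 libraries, wt replicate 1 and ko replicate 3, held many of the overlaps above, so that leaving them out by itself took those overlaps away. The counts of members from the remaining libraries are therefore a description only. On the first principal component ko replicate 3 did not stand apart, at 11.7 between wt replicate 2 at 7.92 and ko replicate 1 at 41.4. They were singled out with earlier results of the data known, and 2 libraries per group remain. edgeR called 0 of the 10 genes and 0 of all genes there, with 8 of the 10 at an unadjusted p under 0.05, where 10.4% of all genes were lower by this rule. DESeq2 on the same 4 libraries called Tlr2, Tlr4, Tlr7, Tlr8, Tlr9, Tlr13 and Cd14 as lower at an adjusted p under 0.05. These are 7 of the 10, where it called 5.91% of the 12492 genes with an adjusted p as lower. Over all 6 libraries DESeq2 called none of the 10, and 0.263% of the 13699 genes with an adjusted p. At an unadjusted p under 0.05, 2 of the 10 were lower. By this rule 5.35% of all 22377 genes were lower, a share that includes genes too low for edgeR's filter.

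**Figure D3:**
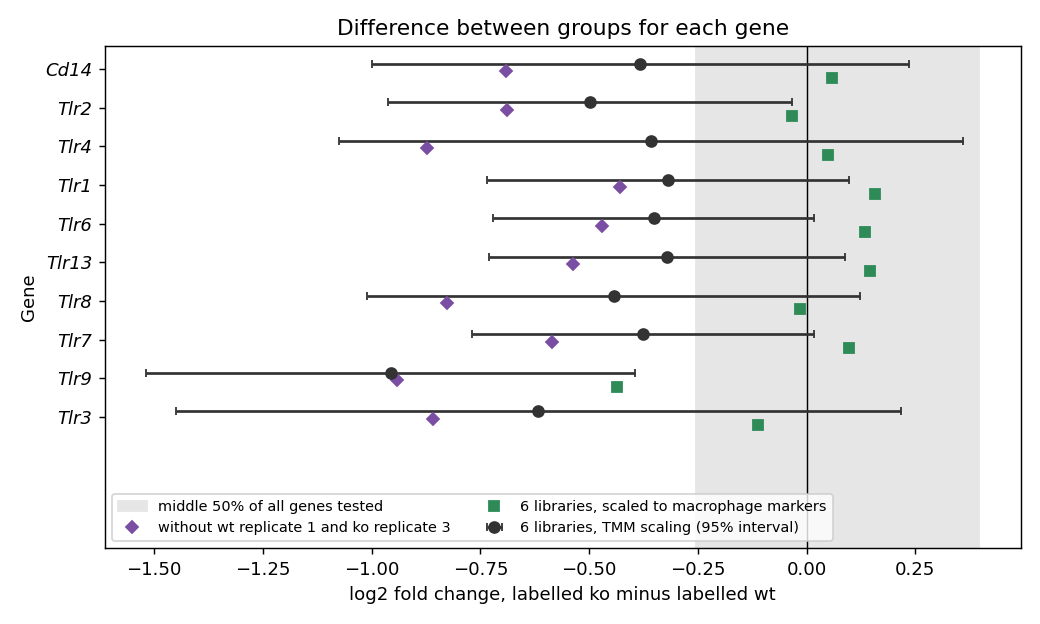
Log2 fold change of each member (ko minus wt) from edgeR over 6 libraries with its 95% interval, from edgeR without wt replicate 1 and ko replicate 3, and from edgeR scaled to the macrophage markers. The band holds the middle of all genes tested, from -0.25 to 0.40. Tlr9 lies at -0.43 under the macrophage scaling, where 6 of the 10 members lie above 0.

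Proteins that help the receptors at the surface mostly had lower estimates as well, 6 of 8 on that list with a median log2 fold change of -0.39. For this list and those below, the shares over all genes tested were 47.9% with a lower estimate, 12.6% wholly lower and 13.3% wholly higher. Ly86, the partner of the receptor-like protein Cd180, was 34.4% lower, from 99.96 to 65.5 CPM, with no overlap between the groups. Itgb2, the beta chain of leukocyte integrins, was 30.5% lower with overlapping groups. Ly96, which completes the lipopolysaccharide receptor, did not follow them and had 6.79 CPM in wt and 7.02 in ko. Cd180 itself stood at 40.1 and 34.6 CPM, and Tril, a co-receptor scarce here, at 0.37 and 0.45.

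The chaperones and transporters of the receptors had lower estimates in 8 of 9 genes, with a median of -0.26. Unc93b1, which carries the nucleic acid receptors to endosomes, was 35.0% lower, from 429 to 279 CPM, and its groups did not overlap. The groups of Cnpy3, a folding partner of the receptors, did not overlap either, at 74.6 and 54.4 CPM. Hsp90b1, the chaperone with which Cnpy3 works, stood the other way at 647 CPM in wt and 815 in ko.
Endosomal proteases cut the nucleic acid receptors into their active form, and nucleases trim their ligands. Of these 10 genes, 9 had a lower estimate, against 47.9% of all genes tested. For 6 of the 10 every ko library lay below every wt library, against 12.6% of all genes tested. Lgmn, an endopeptidase, was 35.3% lower, from 793 to 513 CPM, and Ctsb was 29.6% lower, from 2620 to 1844. Ctsl was the exception at 743 and 779 CPM.

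The adaptors differed among themselves. Ticam2, which links Tlr4 to Ticam1, stood at 33.9 CPM in wt and 19.0 in ko with no overlap, 44.1% lower and the lowest p among the 6 adaptors (unadjusted p = 0.00183, adjusted p = 0.328, edgeR). Tirap, which links Tlr2 and Tlr4 to Myd88, was 28.6% lower, also with no overlap. Myd88, the adaptor that most of the receptors share, stood at 131 and 98.0 CPM with overlapping groups. Ticam1, the adaptor of Tlr3, was at 46.3 CPM in wt and 46.2 in ko. Sarm1 was below 1 CPM in both groups on average.

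Further down the pathway the estimates spread to both sides of 0. Of 19 kinases and ubiquitin ligases, 13 were lower and 6 higher, with a median of -0.04. Irak4, the first kinase that Myd88 recruits, was 38.5% lower and Ikbkb, a kinase that releases NF-kB, 33.2% lower, both with no overlap. Peli1 and Tab3 had the lowest p of the higher ones, 56.97% and 34.3% higher with overlapping groups.
Among 12 transcription factors, 10 were lower, and the groups of Spi1 (PU.1, the macrophage lineage factor) and Irf7 did not overlap, at 341 against 203 CPM and 147 against 96.1 CPM. The NF-kB subunits Rel and Nfkb1 were 24.0% and 7.17% higher with overlapping groups. Negative regulators split into 5 lower and 7 higher, with a median of 0.10. Dok3 and Trafd1 lay wholly below the wt libraries, and Il1rl1 and Sigirr, members of the IL-1 receptor family that restrain these receptors, wholly above them, at 12.1 against 5.95 CPM and 14.04 against 9.65 CPM.

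Genes that the receptors induce had estimates on both sides of 0. Of 19 tested on that list, 10 had a lower and 9 a higher estimate, with a median of -0.04. Tnf was 64.7% higher in ko, from 443 to 729 CPM, and Il12b 53.1% higher, from 7.80 to 11.9 CPM, and for both every ko library lay above every wt library. Nos2 was 42.7% lower and Cd40 24.8% lower, both with overlapping groups. No gene of these pathway lists passed an adjusted p of 0.05 in edgeR, Tnf having an unadjusted p of 0.00249 and an adjusted p of 0.328.

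**Figure D4:**
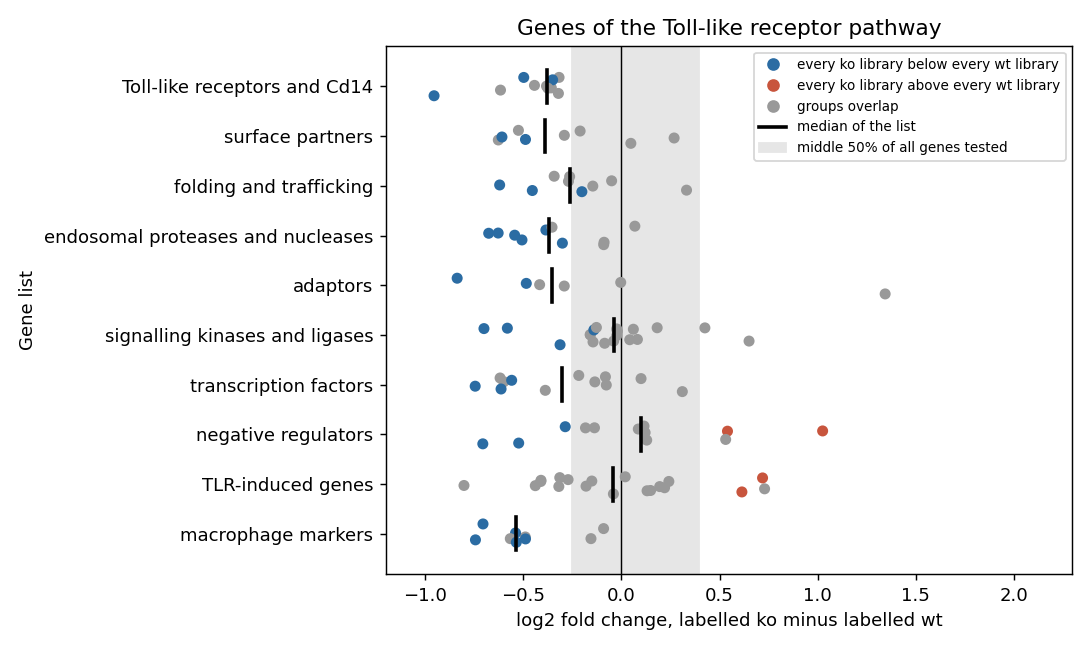
Log2 fold change (ko minus wt) of each tested gene in 9 lists of the pathway and in the macrophage markers, with 1 point per gene, a bar at the list's median, and colors for groups that do not overlap. The medians lie at -0.38 for the receptors and Cd14, -0.37 for endosomal proteases and nucleases, -0.04 for the induced genes and -0.54 for the macrophage markers.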

How the data were processed

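The authors deposited read counts for each gene without normalization, together with FPKM, which scales those counts to gene length and library total. The submitters' processing notes name mm10; the aligner and counter are not given in the sources used here. Counts were tested with edgeR 4.0.16 in R 4.3.3 (filterByExpr, TMM, glmQLFit, glmQLFTest, Benjamini-Hochberg adjustment over 13884 genes), 3 libraries against 3, without covariates. Standard errors were taken from the log2 fold change and the F statistic (fold change over root F). log2 CPM used a prior count of 2. Lists are described by counts, with no set test. Alternatives used DESeq2 1.42.0 and limma 3.58.1 (log2 FPKM plus 1 or 0.1), other scalings and filters, a replicate block and libraries left out. The members, lists, named genes and alternatives were chosen with earlier results of these data known. Named are all members, Npm1, the sorting markers, Ly96, Unc93b1, Myd88, Ticam1, Tirap, Cd180 and, in each pathway list, the 2 genes with the smallest p in each direction, or fewer. Likeness was Pearson's r over 6 libraries. Positions are from GENCODE M21 (GRCm38), matched by symbol. A count of 0 allows up to 3 counts, at most 0.0846 CPM, for counting error only. Same-group libraries differed by 34.3 to 146 in chi-square per gene, so none was counted as a repeat. Not every gene of the marker lists is reported here by name.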

Additional observations from a re-analysis of the deposited data

How the results depend on the processing

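Each of the 10 members kept a lower estimate under 16 other choices of scaling, filter, test or libraries. These 16 were chosen with earlier results of these data known, among them the fits without wt replicate 1 and ko replicate 3. DESeq2 called 36 genes over 6 libraries and 1266 without wt replicate 1 and ko replicate 3. In the latter fit it called 7 members, the groups did not overlap in 10 members, and the median was -0.73. There 22.2% of 21760 genes were wholly lower, with no filter on low counts. The libraries left out had held many of the members' overlaps. Leaving out single libraries, or both of those in edgeR, gave 0 members called, 3 to 10 members without overlap (7 without wt replicate 1, 8 without ko replicate 3) and medians from -0.69 to -0.26 (-0.61 without ko replicate 3, -0.26 without ko replicate 2). In these fits the share of all genes tested that lay wholly lower ran from 14.5% without ko replicate 1 to 26.1% without both libraries. It was 20.4% without wt replicate 2, 19.9% without wt replicate 3 and 15.1% without ko replicate 2. The causes were not tested. Scaling to the macrophage markers, added later, turned the median of members to 0.054, with 4 members lower and 0 genes called. Under it 0 members were without overlap, where 0.951% of all genes tested were wholly lower. It reversed Tlr1 (0.16), Tlr4 (0.049), Tlr6 (0.13), Tlr7 (0.098), Tlr13 (0.15) and Cd14 (0.058), all under the shift of 0.53 of all genes. limma on log2 FPKM plus 0.1 moved the median of all genes to 0.16 and that of members to -0.25, and with plus 1 that of members was -0.22. Upper quartile scaling, both limma fits and the filter of 10 counts left 2 members without overlap. Same-numbered libraries did not deviate together (correlations -0.241, 0.0605 and -0.337), so no pairing was assumed. In the fit with a replicate block, the median of members was -0.40, with 0 called and 1 at an unadjusted p under 0.05. Of all genes tested, 11.6% were under it there, in either direction.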
